A study of Homo sapiens with 9 samples.

Results

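The amino acid response is the program through which cells adapt to a shortage of amino acids. When uncharged tRNAs or other stresses lead to phosphorylation of the translation factor eIF2, general protein synthesis slows while translation of *ATF4* mRNA rises, and the ATF4 protein, a leucine zipper transcription factor, binds composite C/EBP-ATF elements to switch on genes that import amino acids, synthesise them and load them onto tRNAs. Lymphoblastic leukemia cells depend on this supply, and the asparagine synthetase gene *ASNS* is known for its link to asparaginase treatment.

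Here 41 genes of this response were followed in ALL-SIL, an established line of T cell acute lymphoblastic leukemia (T-ALL). They comprised 6 transcription factors (*ATF4*, *ATF3*, *DDIT3*, *CEBPB*, *CEBPG* and *NUPR1*), 6 stress regulators, 11 enzymes of amino acid and one-carbon metabolism, 6 amino acid transporters, 11 cytosolic tRNA synthetases and the tRNA export receptor *XPOT*. All 41 had a probe among the 19722 genes on the array, were found by symbol, and were each represented by their brightest probe. Of these, 39 were tested among 14676 genes and 33585 probes, because *STC2* and *GPT2* were not well above background on any array. Among the 39, *NUPR1* was well above background on 8 of 9 arrays and the other 38 on all 9.

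The cells had been electroporated with a control siRNA, with PHF6 siRNA1 or with PHF6 siRNA2, the last 2 directed against *PHF6*, which encodes a presumed chromatin regulator mutated in T-ALL. Each treatment was profiled in 3 replicates numbered 1 to 3, with 1 one-colour array for each of the 9 RNA samples. Harvest was at 96 h according to most labels, whereas 1 free-text field gives 72 h. All groups shared the same cell line, serum-containing medium and electroporation, no array of untreated cells was analysed here, and the labels do not say which siRNA product was called 1 or 2.

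*PHF6* itself lay at 11.03 ± 0.16 (SD, n = 3) on the normalised log2 intensity scale with control siRNA, at 9.40 ± 0.28 with siRNA1 and at 9.20 ± 0.07 with siRNA2, and it was lower with both siRNAs (log2 difference -1.73, adjusted p = 0.00248). All 9 T lineage markers, including *CD3D* and *TLX1*, were well above background on every array, as was *CD79A*, while *DCN*, *COL1A2*, *HBB* and *FCGR3A* were above it on none. Between replicates 3 and 1 the T lineage list had a median difference of 0.02, with *CD2* called higher (0.75, adjusted p = 0.0076) and *PTCRA* (-0.54, adjusted p = 0.00577) and *CD7* (-0.46, adjusted p = 0.0215) called lower. *CD79B* was the 1 of 4 tested B lineage markers called lower (-0.66). The part of such cell markers in the results was not tested. Between 29659 and 33734 probes per array were well above background. Arrays of replicates 1 and 2 were on 1 slide and those of replicate 3 on another, so for replicate 3 the slide and the replicate cannot be told apart. Arrays that share a replicate number deviated together, and treatment comparisons are therefore also given from a fit blocked by replicate number. With both PHF6 siRNAs, that fit (limma) called *CD7* (-0.76, adjusted p = 0.0124) and *PTCRA* (-0.73, adjusted p = 0.00837) lower. *CD79B* was also called lower there (-0.48, adjusted p = 0.0416). The blocked fit called 1.21% of all genes lower, and without the block none of these markers was called.

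The promoter sequences of the members were examined for the element that ATF4 binds together with C/EBP proteins. Windows of 300 bases, from 250 before to 50 after the RefSeq gene start in GRCh38.p14, were available for 34 of the 41 members, with the first window listed for each gene. The letters TGATGNAA, on either strand, occurred in 11 of these 34 (32.4%), against 1003 of 27305 genes of the whole table (3.67%) and 236 of 11579 genes tested on the arrays (2.04%). The form TTGCATCA, whose reverse complement is one of the sequences covered by TGATGNAA, occurred in 7 of the 34 (20.6%), against 0.923% of all windows. It was found in 6 of 10 member synthetase genes, in 0 of 9 windows of other cytosolic synthetase genes and in 0 of 14 of mitochondrial ones. The members had been chosen as genes of this response, so these shares describe the choice and not a result of the arrays. The stretches that hold the match are shown in the direction of transcription, for *ASNS*, *ATF3* and *CHAC1* and for the 6 synthetase genes, with the matching 8 bases in capitals.

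ASNS, chr7:97872453-97872512, minus strand: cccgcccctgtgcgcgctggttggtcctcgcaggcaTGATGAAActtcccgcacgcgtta
ATF3, chr1:212565180-212565239, plus strand: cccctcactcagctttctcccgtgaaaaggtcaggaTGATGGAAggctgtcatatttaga
CHAC1, chr15:40953226-40953285, plus strand: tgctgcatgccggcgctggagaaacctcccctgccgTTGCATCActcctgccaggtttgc
AARS1, chr16:70289670-70289729, minus strand: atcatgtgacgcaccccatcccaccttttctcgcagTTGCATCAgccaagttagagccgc
CARS1, chr11:3057402-3057461, minus strand: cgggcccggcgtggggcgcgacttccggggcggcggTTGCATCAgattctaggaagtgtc
IARS1, chr9:92293687-92293746, minus strand: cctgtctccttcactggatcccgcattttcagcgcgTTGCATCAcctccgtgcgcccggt
MARS1, chr12:57488028-57488087, plus strand: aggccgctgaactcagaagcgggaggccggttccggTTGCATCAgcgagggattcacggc
TARS1, chr5:33440931-33440990, plus strand: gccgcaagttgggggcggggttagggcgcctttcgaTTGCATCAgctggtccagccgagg
NARS1, chr18:57621807-57621858, minus strand: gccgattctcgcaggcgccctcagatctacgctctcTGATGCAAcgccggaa

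The match began 68 bases before the start of *ASNS*, 191 before that of *ATF3*, 209 before that of *CHAC1* and 187 before that of *AARS1*. In *CARS1*, *IARS1* and *MARS1* it began 2, 13 and 4 bases before the start. Among the windows without the letters were those of *TRIB3*, *SESN2*, *DDIT3*, *PSAT1* and *WARS1*, which says only that these letters are not in these windows.

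On the arrays, the calls among the response genes lay in the comparisons of replicate numbers. Of the 39 tested members, 36 were lower in replicate 3 than in replicate 1, and 28 passed the test as lower and 1, *PYCR1*, as higher (limma, adjusted p under 0.05). For background, 29.6% of all probes were called in this comparison, and of the 14676 genes 18.8% were called lower and 9.81% higher. The median log2 difference was -0.59 over the members and -0.04 over all genes. The heat map of the members shows replicate 1 arrays mostly above and replicate 3 arrays mostly below the mean of each gene.

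**Figure D1:**
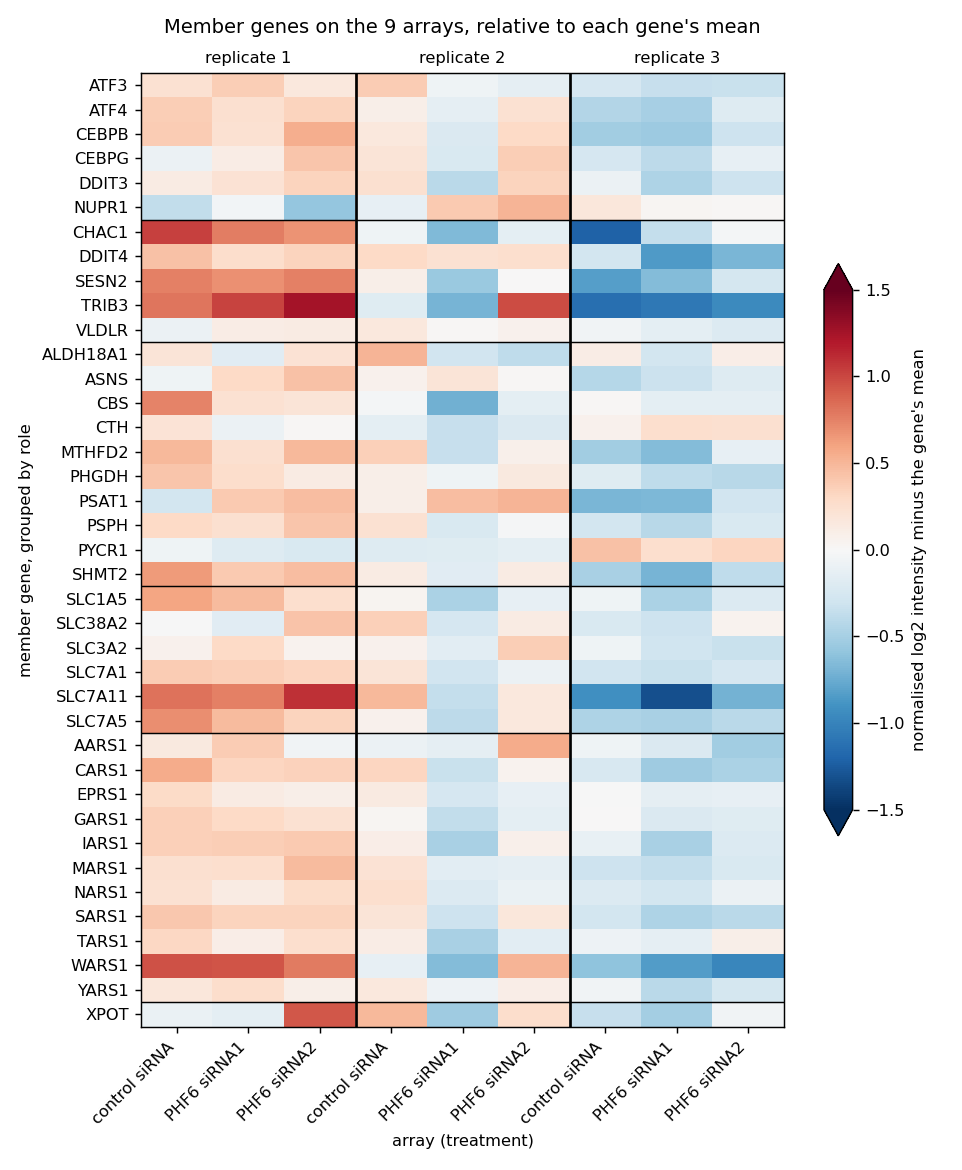
Normalised log2 intensity of the 39 tested members (rows, grouped by role) on the 9 arrays (columns, grouped by replicate number), minus the mean of each gene, from blue (lower) to red (higher), with colours ending at 1.5. *TRIB3*, *SLC7A11*, *WARS1* and *CHAC1* have strong colours, mostly high in replicate 1 and low in replicate 3.

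Among the transcription factors, *ATF4* was measured at 17.22, 17.09 and 17.18 in replicate 1 (control siRNA, siRNA1 and siRNA2, an order kept for all members), at 16.94, 16.71 and 17.08 in replicate 2 and at 16.41, 16.35 and 16.66 in replicate 3. The 3 replicate 3 arrays thus lay below the 6 others. The difference between replicates 3 and 1 was -0.69 ± 0.10 (SE; 1.61-fold lower, adjusted p = 0.0018).

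*CEBPB*, which encodes a dimer partner of ATF4, was at 13.08, 12.93 and 13.25 in replicate 1, at 12.86, 12.49 and 13.00 in replicate 2 and at 12.18, 12.16 and 12.39 in replicate 3. Again replicate 3 did not overlap with the other arrays, with a difference from replicate 1 of -0.84 ± 0.10 (adjusted p = 9e-04). *DDIT3*, encoding the stress-induced factor CHOP, was at 11.43, 11.52 and 11.64, then 11.54, 10.90 and 11.64, then 11.22, 10.84 and 10.99. Its replicate 2 values overlapped with those of both other replicates, and the replicate 3 difference of -0.51 ± 0.15 (adjusted p = 0.0299) lost its call in several alternatives, among them without siRNA1 replicate 1 (adjusted p = 0.16). *ATF3* and *CEBPG* were also called lower in replicate 3 than in replicate 1, by -0.56 and -0.40, although the other 3 tested probes of *ATF3*, all dimmer, gave -0.11 to -0.04 and were not called.

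*NUPR1*, a small stress-induced chromatin protein, was among the 3 tested members that were not lower in replicate 3. It was at 4.79, 5.12 and 4.58 in replicate 1, at 5.04, 5.55 and 5.67 in replicate 2 and at 5.33, 5.19 and 5.18 in replicate 3. The differences from replicate 1 were 0.59 ± 0.17 (SE) for replicate 2 (adjusted p = 0.0607) and 0.40 for replicate 3 (adjusted p = 0.0976), and neither was called. Spot intensities of this dim probe were 32 to 65, against array medians of 23 to 27.5 for negative controls.

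The stress regulators had a median difference of -1.32 between replicates 3 and 1, the largest of the role groups, although single transporters and synthetases exceeded most of them. *TRIB3*, a pseudokinase that feeds back on ATF4, was at 15.36, 15.57 and 15.80 in replicate 1, at 14.38, 13.86 and 15.53 in replicate 2 and at 13.43, 13.48 and 13.60 in replicate 3. Replicates 1 and 3 were each tight and far apart, by -2.07 ± 0.25 (4.21-fold lower in replicate 3, adjusted p = 0.000816), whereas in replicate 2 the siRNA2 array lay near the replicate 1 level.

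*SESN2*, encoding the leucine sensor and mTORC1 inhibitor sestrin 2, was at 10.95, 10.88 and 10.95 in replicate 1, at 10.28, 9.63 and 10.19 in replicate 2 and at 9.36, 9.54 and 9.92 in replicate 3. The arrays of both other replicates lay below all replicate 1 arrays, by -0.89 (adjusted p = 0.00876) for replicate 2 and -1.32 (adjusted p = 0.000816) for replicate 3. *CHAC1*, which encodes a glutathione-degrading enzyme, was at 11.29, 11.03 and 10.94, then 10.20, 9.60 and 10.11, then 9.05, 9.90 and 10.23. Its replicate 2 and 3 values overlapped each other but not replicate 1, with differences from replicate 1 of -1.12 (adjusted p = 0.0288) and -1.36 (adjusted p = 0.00552), and its second probe gave -0.94 and -1.12, both called.

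*DDIT4*, encoding the mTORC1 inhibitor REDD1, differed from these in its replicate 2 level. It was at 15.35, 15.17 and 15.24 in replicate 1, at 15.21, 15.14 and 15.16 in replicate 2 and at 14.63, 14.06 and 14.22 in replicate 3. Only the replicate 3 arrays stood apart, at -0.95 ± 0.12 from replicate 1 (adjusted p = 0.000868) and -0.87 ± 0.12 from replicate 2 (adjusted p = 0.003). The fifth tested stress gene, the lipoprotein receptor *VLDLR*, was not called in any comparison and spanned 6.71 to 7.07.

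**Figure D2:**
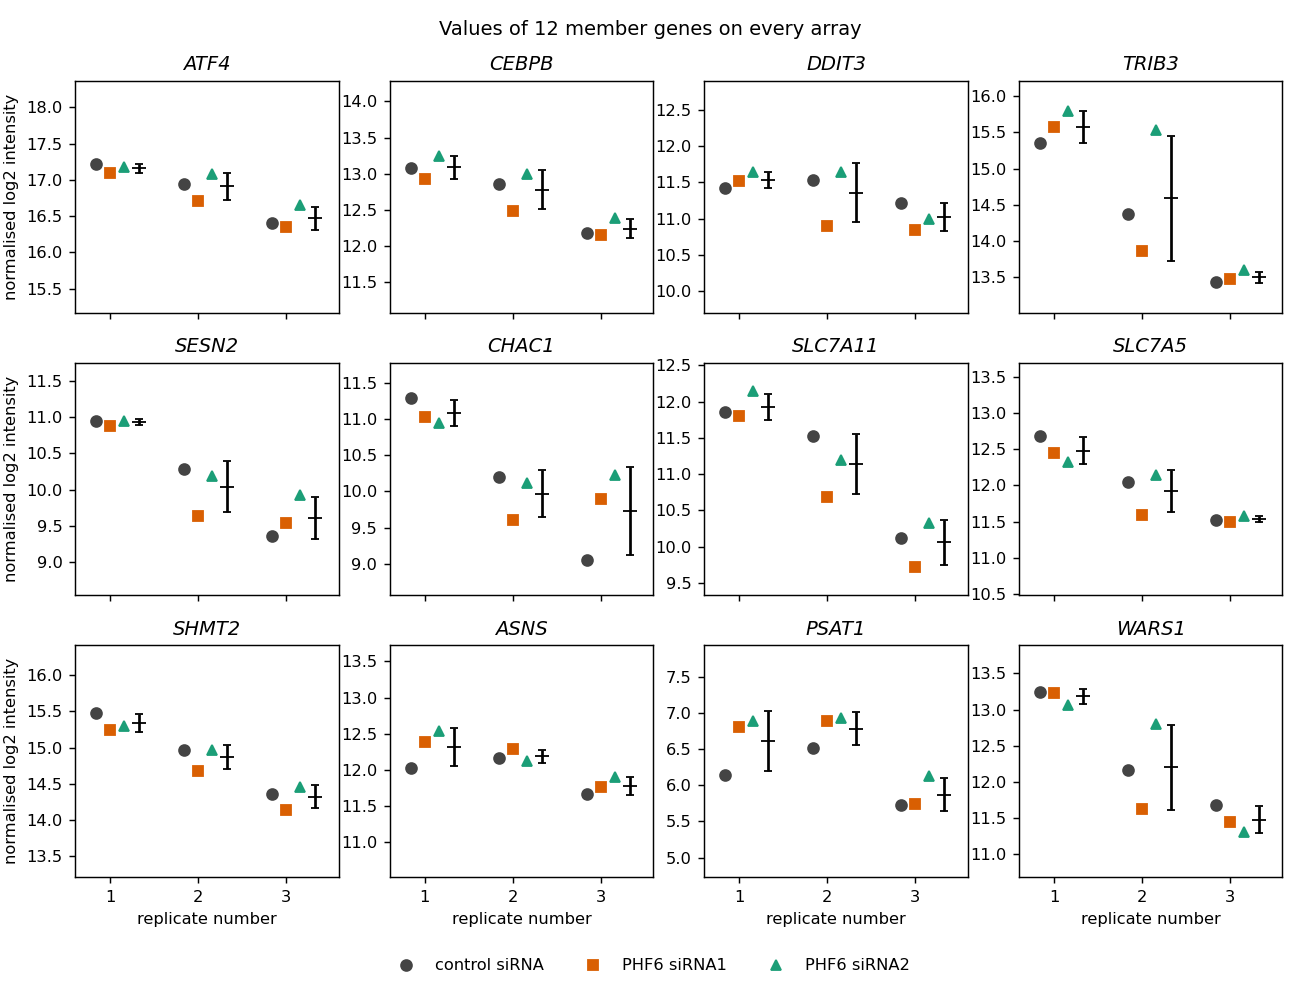
Normalised log2 intensity (vertical axes, each spanning 3.2 units) of 12 members against replicate number, with control siRNA as grey circles, PHF6 siRNA1 as orange squares and PHF6 siRNA2 as green triangles, and the mean ± SD of the 3 arrays of each replicate beside them. *TRIB3* and *WARS1* show a wide replicate 2, with siRNA2 at 15.53 and 12.80, and tight replicates 1 and 3.

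Of the 10 tested enzymes 8 were lower in replicate 3 than in replicate 1, and 7 passed the test as lower and 1 as higher. Over all genes, 18.8% were called lower and 9.81% higher. *SHMT2*, the mitochondrial serine hydroxymethyltransferase, was at 15.48, 15.24 and 15.30 in replicate 1, at 14.96, 14.67 and 14.97 in replicate 2 and at 14.36, 14.14 and 14.46 in replicate 3. The 3 replicates did not overlap, and the difference between replicates 3 and 1 was -1.02 ± 0.10 (2.03-fold lower, adjusted p = 0.000514).

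The serine synthesis genes *PHGDH* and *PSAT1*, encoding its first and its transamination step, were called lower in replicate 3 than in replicate 1. Neither was called between replicates 2 and 1, where *PHGDH* gave -0.21 (limma, adjusted p = 0.267). *PHGDH* was at 15.39, 15.24 and 15.10, then 15.07, 14.91 and 15.13, then 14.80, 14.60 and 14.56, with replicate 3 below all others (-0.59 against replicate 1, adjusted p = 0.00409). *PSAT1* was at 6.14, 6.81 and 6.88 in replicate 1, at 6.51, 6.88 and 6.93 in replicate 2 and at 5.73, 5.74 and 6.13 in replicate 3. Replicate 3 was lower than replicate 1 by 0.74 on the log2 scale (-0.74, adjusted p = 0.00339), while replicate 2 was not, at 0.16 (adjusted p = 0.482). *ASNS* was at 12.03, 12.39 and 12.54, then 12.16, 12.29 and 12.12, then 11.67, 11.77 and 11.90. Its replicate 3 arrays lay below all others, with -0.54 ± 0.12 against replicate 1 (adjusted p = 0.00933).

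*PYCR1*, which makes proline in the last step of its synthesis, was the 1 member called higher in replicate 3, by 0.50 over replicate 1 (adjusted p = 0.00569) and 0.51 over replicate 2 (adjusted p = 0.00782). Its values ran from 6.12 to 6.28 in replicate 1, from 6.15 to 6.20 in replicate 2 and from 6.60 to 6.79 in replicate 3, the last without overlap with the others. The probe was dim, with spot intensities of 72 to 131 against array medians of 23 to 27.5 for negative controls. A second *PYCR1* probe was well above background on 0 arrays. The part of low signal in this difference was not tested. The cystathionine lyase gene *CTH* was called higher in replicate 3 than in replicate 2, by 0.42 (adjusted p = 0.0249), and the cystathionine synthase gene *CBS* lower in replicate 2 than in replicate 1, by -0.69 (adjusted p = 0.0147). The means over the 9 arrays were 6.75 for *CTH* and 6.45 for *CBS*.

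All 6 transporters were lower in replicate 3 than in replicate 1, and 4 of them passed the test, against 18.8% of all genes called lower. *SLC7A11*, the cystine importer, was at 11.86, 11.80 and 12.14 in replicate 1, at 11.53, 10.69 and 11.20 in replicate 2 and at 10.12, 9.72 and 10.33 in replicate 3. The 3 replicates did not overlap, and the difference between replicates 3 and 1 was -1.88 ± 0.14 (3.67-fold lower, adjusted p = 0.000326), which had the smallest p of all members. *SLC7A5*, the light chain of the LAT1 leucine transporter, was at 12.68, 12.45 and 12.32, then 12.05, 11.59 and 12.14, then 11.52, 11.50 and 11.58. Replicate 3 lay below all other arrays, at -0.95 ± 0.14 from replicate 1 (adjusted p = 0.0016). Its heavy chain *SLC3A2* gave -0.37 (adjusted p = 0.0868) and *SLC38A2* gave -0.25 (adjusted p = 0.181), with a second *SLC38A2* probe at 0.23 (adjusted p = 0.18).

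All 11 synthetases were lower in replicate 3 than in replicate 1, and 8 passed the test. Of all 14676 genes, 8050 were lower and 18.8% were called lower. *WARS1*, for tryptophan, was at 13.24, 13.23 and 13.06 in replicate 1, at 12.16, 11.63 and 12.80 in replicate 2 and at 11.68, 11.45 and 11.31 in replicate 3. As for *TRIB3*, the siRNA2 array of replicate 2 was the highest of its replicate number, and replicate 3 differed from replicate 1 by -1.70 ± 0.23 (3.24-fold lower, adjusted p = 0.00125).

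*CARS1*, for cysteine, was at 10.70, 10.47 and 10.50, then 10.47, 9.81 and 10.20, then 9.91, 9.61 and 9.67. *SARS1*, for serine, was at 14.76, 14.69 and 14.69, then 14.55, 14.04 and 14.52, then 14.08, 13.89 and 13.95. In both genes the replicate 3 arrays were below all replicate 1 arrays and overlapped with the siRNA1 array of replicate 2. The differences between replicates 3 and 1 were -0.82 (adjusted p = 0.00129) and -0.74 (adjusted p = 0.00237).

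The other called synthetases, *GARS1*, *IARS1*, *MARS1*, *NARS1* and *YARS1*, ranged from -0.64 to -0.39, and a second *MARS1* probe gave -0.24 (adjusted p = 0.13). *AARS1* (-0.43, adjusted p = 0.137), *EPRS1* (-0.25, adjusted p = 0.0776) and *TARS1* (-0.27, adjusted p = 0.113) were not called. Of the 6 synthetase genes with the promoter letters shown above 4 were called, and of the 4 genes whose window lacked them, *EPRS1*, *GARS1*, *SARS1* and *WARS1*, 3 were called. Of all genes 18.8% were called lower, and the difference between these counts was not tested. *XPOT* gave -0.52 (adjusted p = 0.084).

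Lists of related genes differed in how they compared between replicates 3 and 1, where 18.8% of all genes were called lower and 9.81% higher. Of 26 other tested genes of the amino acid response 12 were called lower and 1 higher, at a median of -0.29. Those called lower included the glycine transporter *SLC6A9* (-2.39, adjusted p = 0.000332), the amino acid transporter *SLC43A1* (-2.32, adjusted p = 0.000319), the ATF4 relative *ATF5* (-1.99, adjusted p = 0.00152) and the translation repressor gene *EIF4EBP1* (-1.23, adjusted p = 0.000436). The gene called higher was *PMAIP1*, encoding the BH3 protein NOXA (0.52, adjusted p = 0.0276). Of 12 cytosolic synthetase and scaffold genes outside the members, 3 were called lower (*LARS1*, *QARS1* and *EEF1E1*) and none higher, at a median of -0.03. Of 17 mitochondrial synthetases none was called lower and 3 were called higher (*EARS2*, *MARS2* and *NARS2*), at a median of 0.14.

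Genes upstream of ATF4 gave 3 calls among 15, all lower, at a median of 0.05. This share of 20% was near the 18.8% of all genes called lower. They were the amino acid sensing kinase *EIF2AK4* (GCN2; -0.33, adjusted p = 0.0396), *EIF2B2* (-0.36, adjusted p = 0.0263) and *DELE1* (-0.35, adjusted p = 0.0264). The endoplasmic reticulum chaperone list gave 6 of 15 called lower at a median of -0.27, with *HSPA5*, the chaperone BiP, at -0.59 (adjusted p = 0.0109) and *HERPUD1* at -0.87 (adjusted p = 0.00177). These lists were chosen with earlier results of the same arrays known, and the differences between them were not tested.

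**Figure D3:**
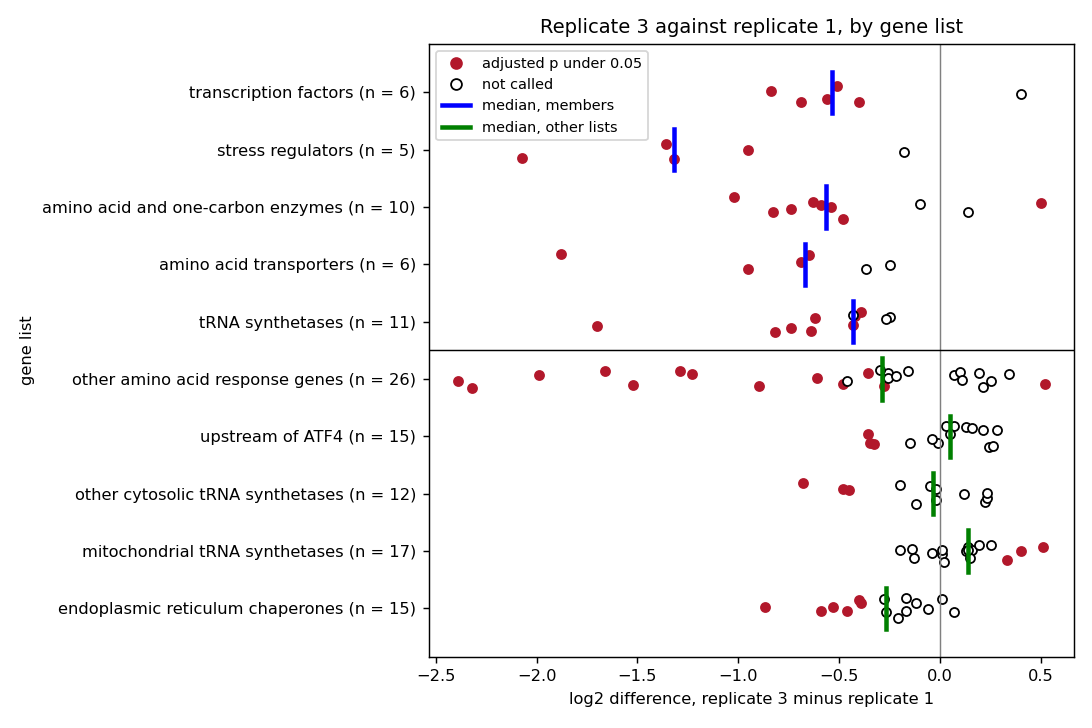
Log2 difference between replicates 3 and 1 (horizontal axis) for each tested gene of the 5 larger member groups (above the line) and of 5 related lists (below it), filled red where the adjusted p was under 0.05, with the median of each list as a vertical bar. The medians run from -1.32 for the stress regulators to 0.14 for the mitochondrial synthetases.

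Replicates 2 and 1 shared a slide, so their comparison is free of that difference. Here 36 of 39 members were lower in replicate 2, and 11 passed the test, all as lower (28.2%), against 8.49% of all probes called, and 5.6% of genes called lower and 4% called higher. The median was -0.28 for the members and -0.03 for all genes. The 11 were *TRIB3*, *CHAC1*, *SESN2*, *SHMT2*, *CBS*, *SLC7A11*, *SLC7A5*, *SLC1A5*, *GARS1*, *IARS1* and *WARS1*, with *CHAC1* at -1.12, *TRIB3* at -0.99 (adjusted p = 0.0364) and *WARS1* at -0.98 (adjusted p = 0.0269) the largest. The count rested on single arrays. It was 0 without siRNA1 replicate 1 or without siRNA1 replicate 2, and 3 without control siRNA replicate 1. *IARS1* was called by its brightest probe (-0.48, adjusted p = 0.0463) and by another (-0.45, adjusted p = 0.0281). A further *IARS1* probe gave -0.16 and was not called (limma, adjusted p = 0.473).

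Of the chaperone genes 0 of 15 were called here, at a median of 0.02 (limma, 3 at an unadjusted p under 0.05). With 5.6% of all genes called lower and 4% higher, a count of 0 in so short a list does not set it apart. In the upstream list *PPP1R15A*, which encodes the GADD34 subunit that directs dephosphorylation of eIF2, was higher in replicate 2 than in replicate 1 (1.37, adjusted p = 0.00191) and than in replicate 3 (-1.13 for replicate 3 minus 2, adjusted p = 0.00386), and *EIF2AK4* was lower in replicate 2 than in replicate 1 (-0.50, adjusted p = 0.0181).

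Between replicates 3 and 2, 13 members were called lower and 2, *PYCR1* and *CTH*, higher, against 25.5% of all probes, and 13.1% of genes called lower and 9.2% higher. The count of 15 fell to 8 without control siRNA replicate 3, to 7 without siRNA1 replicate 3 and to 8 without siRNA2 replicate 3. The arrays of replicate 2 lay below those of replicate 1 without overlap for 16 members (14.4% of genes), and those of replicate 3 for 32 members (26% of genes). The mean was highest in replicate 1 and lowest in replicate 3 for 30 members (24.9% of genes).

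The difference was present in each treatment taken alone. From replicate 1 to replicate 3, 36 of the 39 members were lower with control siRNA (median -0.48), 36 with siRNA1 (median -0.68) and 36 with siRNA2 (median -0.58), while 56.8%, 54.3% and 55.8% of all genes were lower. Over the 9 arrays, the replicate number accounted for a median of 75.3% of the variation of a member and the treatment for 10.7%, against 51.7% and 19.4% over all genes. The share of the replicate number was largest for *PYCR1* (93.7%) and *SHMT2* (91.6%) and smallest for *ALDH18A1* (4.22%). Median spot intensity of the arrays was 41.25 to 48 in replicates 1 and 2 and 51 to 55 in replicate 3, and its part in the differences was not tested. Each replicate number was sampled once per treatment, so these p-values measure the spread between the 3 arrays that share a number.

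**Figure D4:**
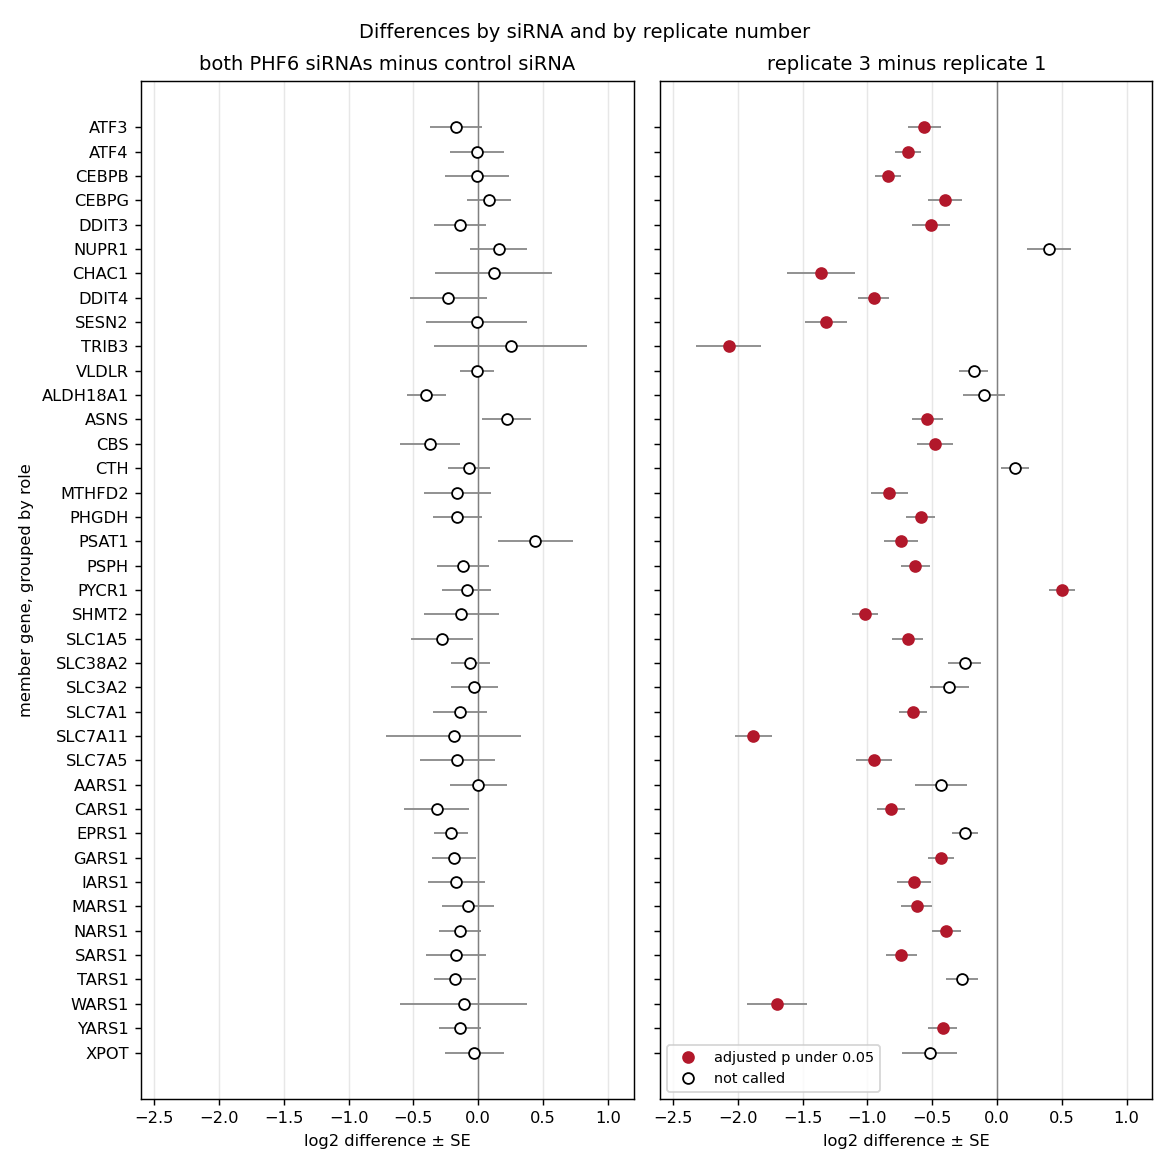
Log2 difference ± SE of the 39 tested members for both PHF6 siRNAs minus control siRNA (left) and for replicate 3 minus replicate 1 (right), on the same axis, with filled red points for an adjusted p under 0.05. No point is filled on the left, where values run from -0.40 to 0.44, and 29 are on the right.

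*PHF6* knockdown was not accompanied by a called change of any member. Comparing both siRNAs with control siRNA, limma called 0 of 39 members (1 at an unadjusted p under 0.05), against 0.00893% of all probes. The same count of 0 was obtained for siRNA1 against control (1 at an unadjusted p under 0.05; 0.00893% of probes) and for siRNA2 against control (0 at an unadjusted p under 0.05; 0.0119% of probes). It was also 0 for siRNA2 against siRNA1 (2 at an unadjusted p under 0.05; 0% of probes). In the fit blocked by replicate number, 2.74%, 0.947%, 1.65% and 0.0387% of probes were called in these 4 comparisons, and again 0 members, with 7, 12, 2 and 10 of 39 at an unadjusted p under 0.05, where 2804, 2525, 2495 and 1333 of the 14676 genes were.

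*ATF4* itself was at 16.85 ± 0.41 (SD, n = 3) with control siRNA, 16.72 ± 0.37 with siRNA1 and 16.97 ± 0.28 with siRNA2. The difference between both siRNAs and control was -0.01, with an SE of 0.21 without and 0.09 with the block. Over the members the differences ran from -0.40 to 0.44 at a median of -0.13, with 32 lower and 7 higher. Of all 14676 genes 8647 were lower and 6029 higher, at a median of -0.04.

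The largest rise was that of *PSAT1*, whose values are given above. It was higher than the control of its own replicate number on 6 of 6 siRNA arrays, but by only 0.01 with siRNA1 in replicate 3. It was the 1 member with this pattern, which 7.34% of all genes had. Its probe was dim, with spot intensities of 69 to 140 against array medians of 23 to 27.5 for negative controls. For both siRNAs together the difference was 0.44, with an SE of 0.29 (limma, adjusted p = 0.771) and of 0.11 with the block (adjusted p = 0.0659). A two-sided exact permutation of the 9 arrays gave p = 0.238 for *PSAT1*, and moving the control position within replicate numbers gave p = 0.037, the smallest that the 27 exact arrangements allow and one that 6 of the 39 members reached. The difference was 0.24 without control siRNA replicate 3 and 0.21 with normexp and quantile normalisation.

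The largest fall was that of *ALDH18A1*, which encodes the enzyme opening proline synthesis. It was at 10.86, 10.50 and 10.89 in replicate 1, at 11.18, 10.38 and 10.29 in replicate 2 and at 10.78, 10.39 and 10.77 in replicate 3. The siRNA1 arrays were low throughout at 10.42 ± 0.07, whereas the siRNA2 array fell well below its control in replicate 2 alone. The difference was -0.40 for both siRNAs (adjusted p = 0.646, and 0.136 with the block), -0.52 for siRNA1 and -0.29 for siRNA2, and the last became 0.01 when replicate 2 was left out of the blocked fit.

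Lower than their own control on 6 of 6 siRNA arrays were 7 members, *DDIT4*, *SLC1A5*, *CARS1*, *EPRS1*, *GARS1*, *SARS1* and *CBS*, which is 7 of 39 against 14.1% of all genes. *CARS1* was lower by 0.32 on the log2 scale (-0.32, adjusted p = 0.0961 with the block) and *CBS* by 0.37 (-0.37, adjusted p = 0.116 with the block). *TRIB3* had the largest difference of siRNA2 from control, 0.59 with an SE of 0.68 (adjusted p = 0.939, and 0.229 with the block), to which the replicate 2 array contributed most, at 1.15 above its control against 0.44 and 0.17 in replicates 1 and 3. Leaving out single arrays moved it between 0.11 without control siRNA replicate 3 and 1.27 without siRNA2 replicate 3.

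With siRNA1, 35 of 39 members were lower than with control siRNA, at a median of -0.21. Of all 14676 genes 9082 were lower, at a median of -0.05. With siRNA2 23 members were lower, at a median of -0.02, and 7877 genes, also at a median of -0.02. With siRNA2, 36 of 39 members were higher than with siRNA1, at a median of 0.17. Of all 14676 genes 8439 were higher, at a median of 0.03. No member was called. *XPOT* showed the largest difference. It was at 11.00, 10.96 and 12.03 in replicate 1, at 11.59, 10.57 and 11.36 in replicate 2 and at 10.76, 10.59 and 11.05 in replicate 3, so that siRNA1 was the lowest of the 3 treatments in each replicate. The difference was 0.77 with an SE of 0.27 (adjusted p = 1, and 0.338 with the block). The largest difference the other way was that of *NUPR1*, -0.14 with an SE of 0.26 (adjusted p = 1), which changed sign in several alternatives.

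Within single replicate numbers, the contrast was widest in replicate 2. There 35 of 39 members were lower with siRNA1 than with control siRNA, at a median of -0.46, and 36 were higher with siRNA2 than with siRNA1, at a median of 0.35. The corresponding medians over all genes were -0.10 and 0.05. Of all genes, 35.1% were higher with siRNA1 than with control siRNA, and 59.9% higher with siRNA2 than with siRNA1. In replicate 1 the member medians were -0.07 and 0.06, and in replicate 3 they were -0.14 and 0.14. The siRNA1 array of replicate 2 also had the fewest probes well above background, 29659, and its part in these values was not tested. Over the 3 replicates together, 15 of 15 chaperone list genes were higher with siRNA2 than with siRNA1, at a median of 0.22. None was called (limma, 0 at an unadjusted p under 0.05). Of all 14676 genes 8439 were higher in that comparison, at a median of 0.03.

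**Figure D5:**
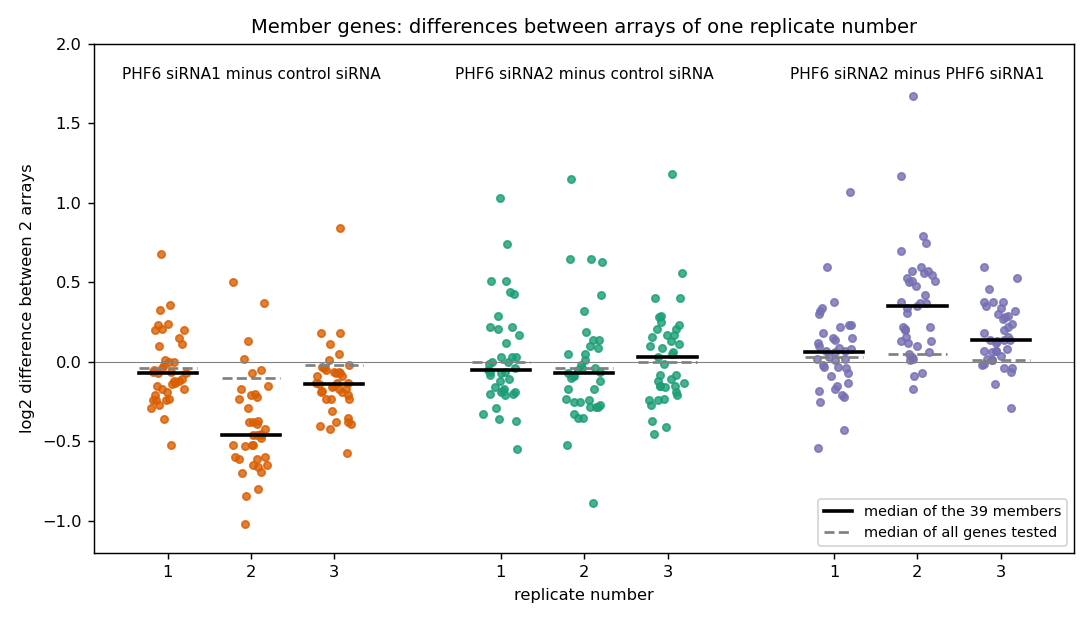
Log2 difference between the 2 named arrays of one replicate number (vertical axis) for each of the 39 tested members, for the 3 pairs of treatments, with the member median as a black bar and the median of all tested genes as a dashed grey bar. The member median reaches -0.46 for siRNA1 minus control and 0.35 for siRNA2 minus siRNA1 in replicate 2, and lies within 0.14 of 0 in the other replicates.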

How the data were processed

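Total RNA of 9 ALL-SIL samples was hybridised to custom one-colour Agilent arrays. Per the file headers, intensity values were deposited as Feature Extraction output, and the log2 table deposited by the authors served as an alternative. Median intensities of 57176 probes were normalised with a re-implementation of the variance stabilising model, tested on simulated data, on a log2 scale. Probes well above background (the deposited flags, of unit other) on at least 3 of 9 arrays were tested with limma 3.58.1 in R 4.3.3 and adjusted by Benjamini-Hochberg over all 33585. Treatments were compared over 3 arrays a group, both unblocked and blocked by replicate number, and replicate numbers with treatment as a covariate. Same-number arrays deviated together across treatments (9 correlations of 0.31 to 0.75). Precision is limited by the number of arrays. The paper describes the ALL-SIL profiles as coming from 3 independent samples, and nothing in the labels says that replicates came from separate cultures. The p-values measure the spread between samples, which may be technical. Members and lists were chosen with earlier results of these data known. Values on every array are printed for 10 response genes, for the 12 called members with the smallest p, and for the largest rise and fall in each treatment comparison and between replicates 2 and 1. The alternatives tried were other normalisations, the deposited log2 table, no filter, blocks and left-out arrays.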

Additional observations from a re-analysis of the deposited data

Results flagged for a closer look

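*CEBPB* had differences from control of opposite sign for siRNA1 and siRNA2, the smallest being -0.03 for siRNA1 in replicate 3. The gene was not called in any treatment comparison. It was below the control of its own replicate number on 3 of 3 siRNA1 arrays and above it on 3 of 3 siRNA2 arrays, and the log2 difference of siRNA2 from siRNA1 was 0.36 (limma, adjusted p = 1, and 0.361 with the replicate block). This pattern was seen in 1 of 39 members (2.56%) and in 157 of 14676 genes (1.07%).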

How the results depend on the processing

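No member was called in any of the 4 treatment comparisons under any of the 28 or 29 alternatives of each, the replicate block and the slide block included, and the block changed no call of a member (0 called with it). Among 8 differences of named members between treatments, 224 of 229 alternative values kept their direction and side of the threshold and 5 reversed. The siRNA2 difference of *ALDH18A1* from control ranged from -0.45 without replicate 1 to 0.01 without replicate 2 in the fit with the replicate block. The *NUPR1* difference between the siRNAs became 0.02 with normexp and quantile normalisation, both without and with the block, 0.14 without siRNA2 replicate 1 (and -0.41 without siRNA2 replicate 2), and 0.05 in the blocked fit without replicate 1. For replicate 2 against replicate 1, the 11 called members became 6 with the variance stabilising model on processed signals, 4 at the 75th percentile scaling, 20 with normexp, 3 without the filter, 3 without the treatment covariate, and 4, 0 and 7 without the control, siRNA1 and siRNA2 groups. Leaving out single arrays gave 0 to 13, with 0 without siRNA1 replicate 1 or siRNA1 replicate 2 and 3 without control siRNA replicate 1. For replicate 3 against replicate 2, the 15 became 8 at the 75th percentile scaling, 8 without the filter, 9 without the covariate, and 7, 6 and 6 without the 3 groups. Leaving out single arrays gave 7 to 16. For replicate 3 against replicate 1, the 29 became 19 without the siRNA1 group, and 22 to 31 without single arrays. Of 506 alternative values for named members between replicates, 433 kept their call, 73 lost it and 0 reversed. The causes were not tested. *STC2* and *GPT2* were limited by signal over background.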
